A study of Mus musculus with 8 samples.

Results

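The mitochondrial ribosomal protein genes were the 78 of 25413 genes in the count table whose symbol is Mrpl or Mrps, a number and at most 1 letter. This rule uses names alone and leaves out the named pseudogenes. It took 49 genes named Mrpl and 29 named Mrps. All 78 passed the filter on low counts, and the lowest count of a member in any library was 20. They lie on 17 chromosomes, with the most, 11 genes, on chromosome 11.

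The mitochondrial ribosome translates the few messenger RNAs of the mitochondrial genome, which encode core subunits of the respiratory chain and of ATP synthase. Its ribosomal RNAs come from mitochondrial DNA, whereas its proteins are encoded in the nucleus, made in the cytosol and imported. Many of these proteins have a bacterial relative, and others are found only in mitochondria.

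Polyadenylated RNA was sequenced from spheroids, cell aggregates grown in 3 dimensions, of 2 mouse mammary epithelial lines. EpH4 is given the genotype WT in the labels, and EpH4-AS the genotype AS-transformed, with no agent or allele named. Each line was left untreated or was exposed to PM2.5, fine airborne particles, at a dose and for a time not given in the sources used here. The 4 groups held 2 libraries each, all from 1 labelled batch, and each line is a single line, so a difference between lines cannot be told apart from any other difference between these cultures. Whether both libraries of a group are separate cultures is not in the labels, and the p values then rest on a spread that may be only technical. In bulk RNA, fewer cells of a type and less RNA per cell cannot be told apart.

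Total counts ran from 24608176 to 27765982 in the 4 EpH4 libraries and from 15393256 to 18334052 in the 4 EpH4-AS libraries. The labelled cell type was not matched by its markers in either line. Of 15 markers of mammary epithelial cells, Krt14 and Ehf reached 1 CPM (counts scaled by TMM to a common library total) in EpH4 and only Krt7 did in EpH4-AS, while Krt19 and Cldn4 had 0 counts in all 4 groups. The 15 markers summed to between 8.11 and 9.27 CPM in untreated EpH4, between 17.98 and 18.5 CPM with PM2.5, and between 2.22 and 2.85 CPM in EpH4-AS. The 10 fibroblast markers summed to between 14803 and 16951 CPM in EpH4 and between 6572 and 7569 CPM in EpH4-AS. The highest was Fn1 in untreated EpH4 (mean 12038 CPM) and Vim in untreated EpH4-AS (mean 3653 CPM). These markers went both ways, with 3 of 9 tested higher and 6 lower in untreated EpH4-AS, where 43.6% and 45.7% of all genes tested were. Thy1 had 0 counts in both EpH4-AS groups. The 6 adipocyte markers summed to between 142 and 171 CPM in EpH4, to between 1381 and 1423 CPM in untreated EpH4-AS and to between 1113 and 1121 CPM in EpH4-AS with PM2.5, mostly Lpl. The 7 immune markers summed to between 175 and 225 CPM in EpH4 and between 38.9 and 42.3 CPM in EpH4-AS, mostly Cd68, with Cd3e at 0 counts in all 4 groups. The 5 endothelial markers summed to between 0.253 and 0.875 CPM in every library. The part of these differences in the results on the lines was not tested.

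As a set, the mitochondrial ribosomal protein genes took a larger share of the counts in EpH4-AS than in EpH4. They held 0.230% and 0.225% of counts in untreated EpH4, 0.219% in both EpH4 libraries with PM2.5, 0.293% and 0.296% in untreated EpH4-AS, and 0.285% and 0.291% in EpH4-AS with PM2.5. The libraries of the lines did not overlap. The summed level was 2308 ± 20.6 CPM in untreated EpH4 and 2887 ± 2.70 CPM in untreated EpH4-AS, a ratio of 1.25 (SD, n = 2). With PM2.5 it was 2207 ± 3.88 CPM in EpH4 and 2869 ± 33.5 CPM in EpH4-AS, a ratio of 1.30 (SD, n = 2). A single gene, Mrps18a, carried 1.49% of the summed level in untreated EpH4 and 9.85% in untreated EpH4-AS, and the other members together had ratios of 1.14 untreated and 1.18 with PM2.5. Exposure moved the sum little, with a ratio of PM2.5 to untreated of 0.956 in EpH4 and 0.994 in EpH4-AS.

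Levels of different genes were compared per exon length, as the authors' RPKM (reads scaled to exon length and library size). In untreated EpH4 the 78 genes spread over an 18.4-fold range, from Mrpl19 at 2.84 RPKM to Mrpl24 at 52.4 RPKM, with a median of 13.5 RPKM. In untreated EpH4-AS they spread over a 251-fold range, from Mrpl36 at 1.03 RPKM to Mrps18a at 259.7 RPKM, with a median of 15.2 RPKM. The SD of log2 RPKM over the members was 1.02 in untreated EpH4 and 1.46 in untreated EpH4-AS.

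The highest members differed between the lines. In untreated EpH4 they were Mrpl24, Mrpl52, Mrps18b, Mrpl10 and Mrpl23, and in untreated EpH4-AS Mrps18a, Mrpl28, Mrpl14, Mrps18b and Mrpl20, so that only Mrps18b was among the 5 highest in both. In an average over the 4 groups, which joins these different orders, the 5 highest were Mrps18a, Mrpl14, Mrpl28, Mrps18b and Mrpl52, at 143.9, 53.5, 52.9, 48.9 and 43.5 RPKM. The 5 lowest were Mrps16, Mrpl58, Mrpl19, Mrps26 and Mrpl48, at 4.9, 4.8, 4.1, 3.4 and 2.1 RPKM. Mrpl24, the highest in untreated EpH4, was 11th in this average. The order of the genes was close without and with PM2.5 and less so between the lines. Across the 78 genes, Spearman's rho of RPKM was 0.984 between EpH4 without and with PM2.5 and 0.994 in EpH4-AS, against 0.548 between the untreated lines. These correlations are a description over genes, which are not independent. Of the 20 highest members in each untreated line, 8 were shared, and 30 members moved by more than 20 ranks between the lines.

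**Figure D1:**
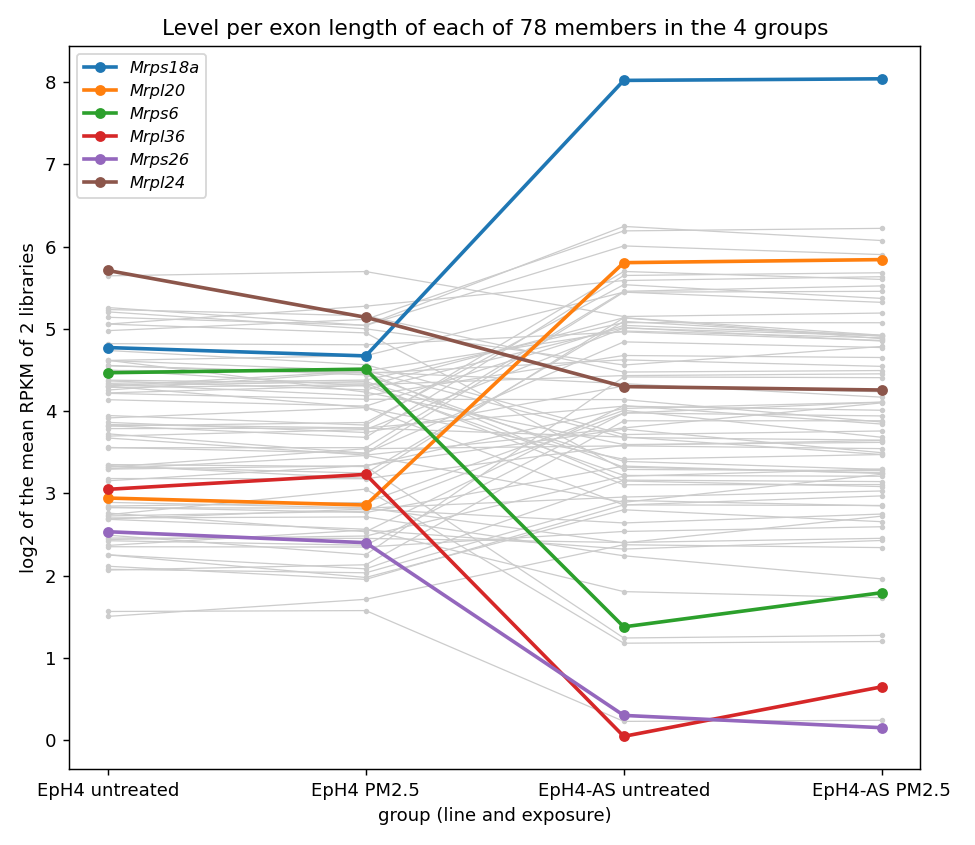
Log2 of the mean RPKM of 2 libraries (vertical axis) for each of the 78 members in the 4 groups (horizontal axis), with 6 members in colour and the others in grey. Most lines run level between untreated and PM2.5 and cross between EpH4 and EpH4-AS, and Mrps18a stands above all others in EpH4-AS at 259.7 RPKM untreated.

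The comparison of untreated EpH4-AS with untreated EpH4 asked how the labelled transformation relates to these genes. The members did not move together, and their log2 fold changes had quartiles of -0.81 and 0.71, beside -1.51 and 0.97 over all genes tested. Of 78, 37 were higher and 30 lower in EpH4-AS at an adjusted p under 0.05 (edgeR quasi-likelihood test, Benjamini-Hochberg over 13716 genes), and 11 did not pass. The median log2 fold change was 0.11, beside -0.05 over all genes tested. The count is no mark of these genes, since 89.2% of all genes tested were called (43.6% higher and 45.7% lower) against 85.9% of the members. Differences past 2-fold were found for 34 members, 16 higher and 18 lower, which is 43.6% of them against 55.2% of all genes tested.

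Mrps18a had the largest rise. It is 1 of 3 mitochondrial relatives of bacterial protein S18 and, despite its name, sits in the large subunit. In GRCm39 it lies on the forward strand at chr17:46421912-46439836. It stood at 33.8 and 34.9 CPM in untreated EpH4, 31.1 and 32.7 CPM with PM2.5, 289 and 279 CPM in untreated EpH4-AS, and 293 and 296 CPM with PM2.5. Every EpH4-AS library was far above every EpH4 library, and the log2 fold change was 3.05 (SE 0.0553, adjusted p 1.4e-15, 8.29-fold). Its body overlaps Rsph9 on the other strand by 6876 bases, and Rsph9 lay between 0 and 0.542 CPM in every library.

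Mrpl20, the relative of a bacterial protein that binds ribosomal RNA early in assembly of the large subunit, followed (GRCm39 chr4:155887335-155894432, forward strand). It stood at 11.9 and 10.9 CPM in untreated EpH4, 10.7 and 10.8 CPM with PM2.5, 73.3 and 71.3 CPM in untreated EpH4-AS, and 74.5 and 76.9 CPM with PM2.5, with no overlap between the lines. The log2 fold change untreated was 2.66 (SE 0.0699, adjusted p 4.41e-14). The next 8 rises were in Mrps35, Mrps22, Mrpl4, Mrps9, Mrpl3, Mrpl39, Mrps34 and Mrpl37, with log2 fold changes between 1.55 and 1.73. Mrpl3, Mrpl4 and Mrps9 have bacterial relatives, and Mrps35, Mrps22, Mrpl39, Mrps34 and Mrpl37 are proteins of the mitochondrial particle without one.

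Mrps6, a small subunit protein related to bacterial S6, had the largest fall (GRCm39 chr16:91855158-91909115, forward strand). It stood at 22.9 and 22.4 CPM in untreated EpH4, 23.0 and 23.6 CPM with PM2.5, 2.05 and 2.59 CPM in untreated EpH4-AS, and 3.56 and 2.77 CPM with PM2.5. All 4 EpH4-AS libraries were low, and the log2 fold change untreated was -3.29 (SE 0.139, adjusted p 8.06e-12, 9.77-fold lower). Slc5a3, an inositol transporter gene on the same strand that overlaps 29152 bases of Mrps6, had a log2 fold change of -4.45 (adjusted p 2.44e-14), from 69.5 and 79.7 CPM to 3.37 and 3.42 CPM. How the authors' counting shared reads between these overlapping genes is not given in the sources used here, and 64.3% of the reads assigned to Mrps6 in untreated EpH4 lay outside its exons.

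Mrpl36, a short protein of the large subunit related to bacterial L36, came next (GRCm39 chr13:73476632-73480297, forward strand). It stood at 12.4 and 10.9 CPM in untreated EpH4, 11.9 and 14.4 CPM with PM2.5, 1.20 and 1.33 CPM in untreated EpH4-AS, and 1.81 and 2.12 CPM with PM2.5. The lines again did not overlap, and the log2 fold change untreated was -3.20 (SE 0.197, adjusted p 6.37e-10). The next 8 falls, from -2.43 to -1.53 on the log2 scale, were in Mrps26, Mrps17, Mrpl42, Mrps16, Mrps18c, Mrpl24, Mrps10 and Mrpl48. Counts of Mrpl48 are less certain, because a pseudogene named after it, like those of Mrpl23 and Mrps36, is in GENCODE M21 and could share its reads.

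**Figure D2:**
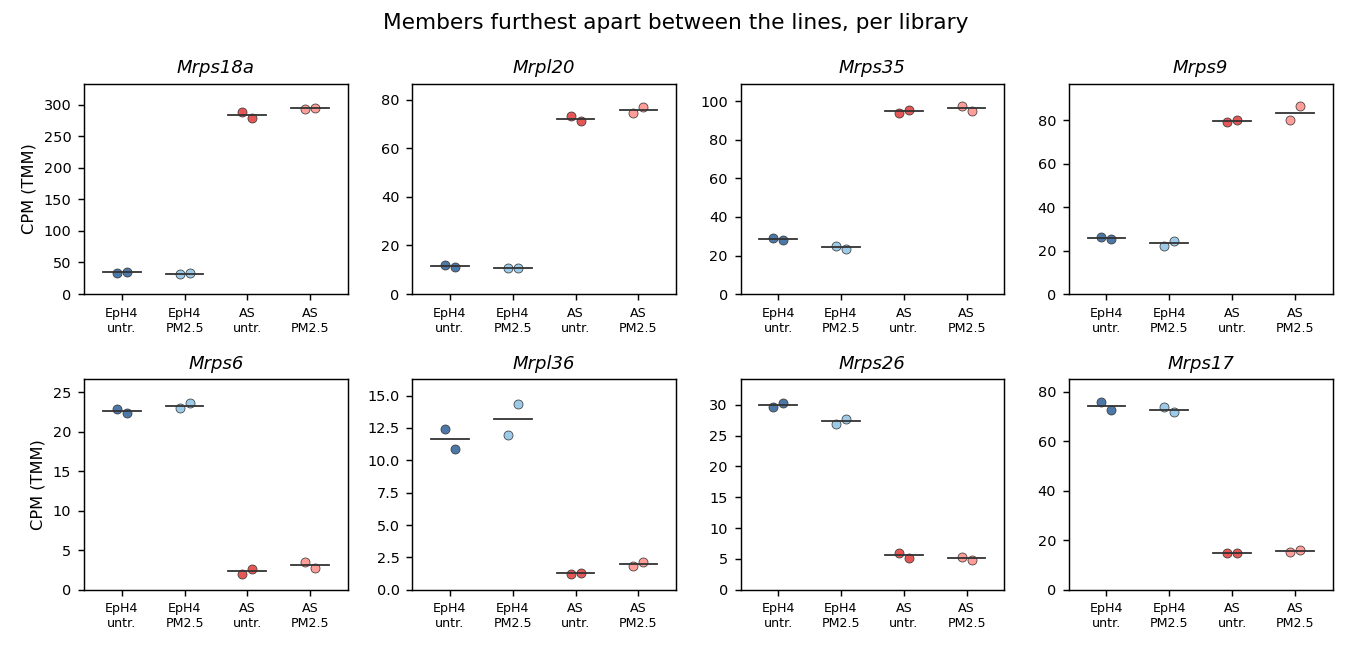
TMM-scaled CPM (vertical axis, from 0) of 8 members in each library, by group (horizontal axis; AS is EpH4-AS, untr. is untreated), with points for the 2 libraries and a bar for their mean. The upper row shows members higher in EpH4-AS and the lower row members lower there, such as Mrps6 at 22.9 and 22.4 CPM in untreated EpH4 and 2.05 and 2.59 CPM in untreated EpH4-AS.

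Both subunits held higher and lower members. Of 51 members placed in the large subunit (the Mrpl genes with Mrps18a and Mrps30), 26 were higher and 19 lower (88.2% called), with a median log2 fold change of 0.24. Of the 27 other members, taken by their Mrps name, 11 were higher and 11 lower, with a median of 0.06. That is 81.5% called, where 89.2% of all genes tested were. Whether each of the 27 sits in the small subunit was not checked. Members with a bacterial relative (24 of 48 higher, 15 lower, median 0.23) and members without one (13 of 30 higher, 15 lower, median -0.18) both held rises and falls. No difference between these classes was tested.

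Both directions were also found at the functional sites of the particle, in a comparison where 89.2% of all genes tested were called. At the stalk, which recruits translation factors, Mrpl12 (log2 fold change 0.63) and Mrpl11 (0.57) were higher in untreated EpH4-AS, Mrpl10 (-0.96) and Mrpl54 (-1.43) were lower, and Mrpl53 (-0.12, adjusted p 0.284) did not pass. Around the exit of the polypeptide tunnel, Mrpl22 (1.52), Mrpl44 (0.92) and Mrpl45 (0.45), which tethers the ribosome to the inner membrane, were higher, while Mrpl24 (-1.61), Mrpl23 (-0.84), Mrpl47 (-0.25) and Mrpl17 (-0.25) were lower. Among the 6 proteins of the central protuberance, Mrpl46 (1.36), Mrpl40 (0.71) and Mrpl18 (0.47) were higher, Mrpl48 (-1.53) and Mrpl58 (-1.08), which can release stalled chains, were lower, and Mrpl38 (-0.05, adjusted p 0.404) did not pass.

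The 6 proteins at the decoding centre and along the messenger RNA path lay close to 0. Mrps21 (0.33) and Mrps5 (0.30) were higher, Mrps12 (-0.27) was lower, and Mrps24 (0.15), Mrps2 (0.06) and Mrps28 (-0.07) did not pass. The 3 S18 relatives parted. Mrps18a had 3.05, Mrps18b 0.55 (adjusted p 3.19e-07) and Mrps18c -1.64 (adjusted p 1.09e-09) on the log2 scale. As levels, Mrps18a, Mrps18b and Mrps18c stood at 27.3, 38.3 and 19.8 RPKM in untreated EpH4 and at 259.7, 64.4 and 7.26 RPKM in untreated EpH4-AS.

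The same contrast with PM2.5 uses the other 4 libraries. There, 38 members were higher and 30 lower in EpH4-AS (87.2% called, beside 89.0% of all genes tested, 43.5% higher and 45.5% lower), with a median log2 fold change of 0.14 beside -0.04. Of the 78, 35 were higher in both comparisons, 29 were lower in both, 7 were called in neither, 3 only untreated and 4 only with PM2.5, and of those called in both, 0 changed direction. The log2 fold change had another sign in 4 members, Mrpl15, Mrps2, Mrpl33 and Mrps28, none of them called untreated, and Mrps28 was called with PM2.5 (-0.07 untreated and 0.47 with PM2.5). The 3 are Mrpl34, Mrps21 and Mrpl47, the 4 are Mrpl53, Mrps28, Mrps24 and Mrps11, and the 7 are Mrpl2, Mrpl33, Mrpl38, Mrpl13, Mrpl15, Mrps7 and Mrps2. Across the 78 genes the log2 fold changes of both comparisons had Pearson's r 0.987 and Spearman's rho 0.984, a description over genes. Mrps18a again led with 3.21 (SE 0.0558) and Mrps6 again had the largest fall with -2.88 (SE 0.128). The DESeq2 Wald test called 64 members untreated (82.1%, beside 85.1% of all genes) and 67 with PM2.5 (85.9%, beside 84.6%).

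**Figure D3:**
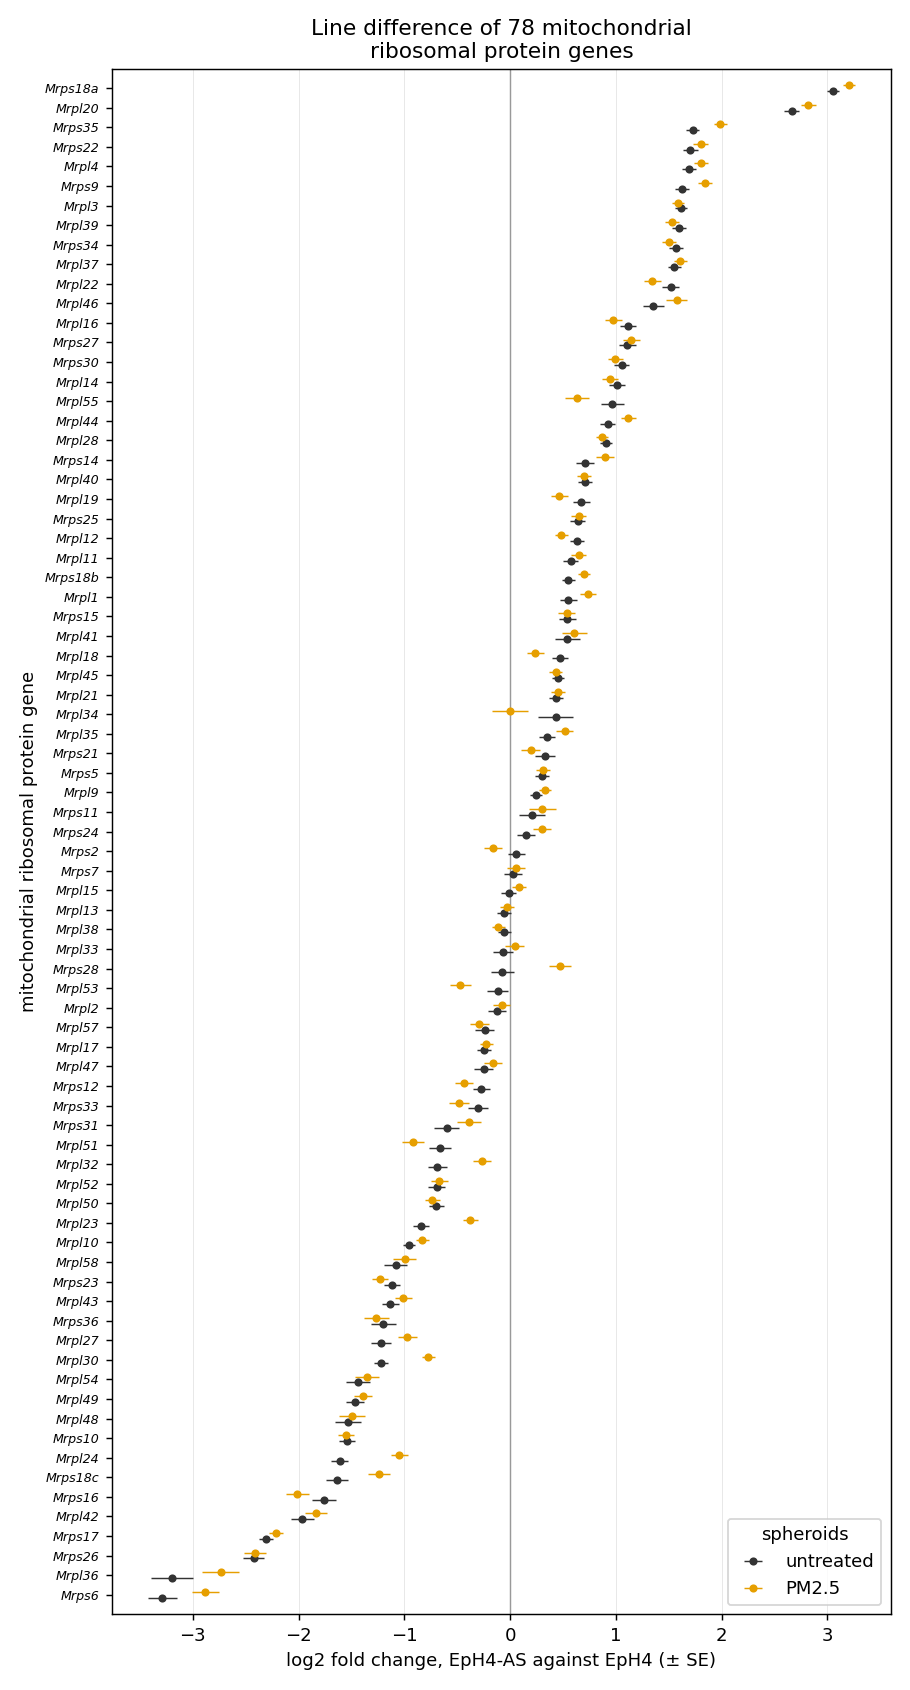
Log2 fold change of EpH4-AS against EpH4 (horizontal axis) with its SE for all 78 members (vertical axis, in order of the untreated value), in untreated spheroids (dark) and with PM2.5 (orange). The values run from -3.29 for Mrps6 to 3.05 for Mrps18a untreated, and the points of both comparisons lie close together for most genes.

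The libraries of the lines also differed in reads outside exons, and the members shared that difference. Of the reads assigned to the 78 genes, between 14.7% and 16.6% lay outside their exons in the 4 EpH4 libraries and between 2.46% and 2.79% in the 4 EpH4-AS libraries. Over all genes these shares were 11.3% to 12.5% and 3.39% to 3.59%. The share was higher in untreated EpH4 than in untreated EpH4-AS for 73 of the 78 members. Over the members, Spearman's rho of the log2 fold change with the share outside exons was 0.20 for the share in untreated EpH4 and -0.19 for that in untreated EpH4-AS, and rho with exon length was 0.06, as a description. With all reads of each gene in place of its exon counts, 64 members were called untreated (82.1%, beside 89.0% of all genes). With PM2.5, 67 were (85.9%, beside 89.2%).

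Of the 78 members, 27 overlap another gene of the table, 22 of them on the opposite strand and 7 on the same strand, and whether the counting used strand is not given in the sources used here. Among the 51 that overlap no gene, 25 were higher and 21 lower in untreated EpH4-AS, where 43.6% and 45.7% of all genes tested were. Mrpl46 and Mrps11 are the only members that overlap each other. They lie on opposite strands and share 413 bases at their start ends, with each start inside the other gene. Their log2 fold changes were 1.36 (adjusted p 5.45e-09) and 0.21 (adjusted p 0.132).

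Promoters were examined because members of 1 complex moved in opposite directions. RefSeq windows (build GRCm38.p6) of 300 bases, 250 before and 50 after the start, were found for 69 of 78 members. Those without one are Mrpl15, Mrps28, Mrpl19, Mrps35, Mrpl4, Mrpl54, Mrpl38, Mrpl13 and Mrps34. The 250 bases before the start are shown for both largest rises and both largest falls, and for Mrpl22 and Mrpl43, which hold the same pair of motifs and differed in direction. Capitals mark matches to the motifs searched on both strands, spelled out after the sequences.
Mrps18a: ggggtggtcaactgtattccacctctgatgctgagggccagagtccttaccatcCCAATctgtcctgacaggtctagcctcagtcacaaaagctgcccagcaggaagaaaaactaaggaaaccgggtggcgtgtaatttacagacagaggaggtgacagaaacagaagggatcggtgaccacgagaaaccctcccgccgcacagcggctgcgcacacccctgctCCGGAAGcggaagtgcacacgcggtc
Mrpl20: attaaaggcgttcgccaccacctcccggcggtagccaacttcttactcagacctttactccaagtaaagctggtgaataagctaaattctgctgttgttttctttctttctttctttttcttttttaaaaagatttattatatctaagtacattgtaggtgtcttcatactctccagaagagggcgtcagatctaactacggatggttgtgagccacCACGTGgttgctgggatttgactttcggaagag
Mrpl22: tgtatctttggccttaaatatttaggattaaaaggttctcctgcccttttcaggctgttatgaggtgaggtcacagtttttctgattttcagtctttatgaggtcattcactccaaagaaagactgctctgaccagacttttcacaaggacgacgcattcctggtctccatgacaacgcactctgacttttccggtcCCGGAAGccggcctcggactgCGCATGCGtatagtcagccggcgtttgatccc
Mrps6: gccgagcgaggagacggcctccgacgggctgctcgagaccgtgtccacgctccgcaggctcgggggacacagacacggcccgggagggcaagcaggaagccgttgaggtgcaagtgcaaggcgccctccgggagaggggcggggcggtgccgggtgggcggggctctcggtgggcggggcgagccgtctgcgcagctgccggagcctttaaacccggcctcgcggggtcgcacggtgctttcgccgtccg
Mrpl36: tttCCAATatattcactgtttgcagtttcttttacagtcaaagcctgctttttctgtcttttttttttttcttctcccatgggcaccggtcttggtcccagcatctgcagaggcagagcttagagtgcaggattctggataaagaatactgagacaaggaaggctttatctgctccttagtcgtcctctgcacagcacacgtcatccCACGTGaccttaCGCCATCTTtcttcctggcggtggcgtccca
Mrpl43: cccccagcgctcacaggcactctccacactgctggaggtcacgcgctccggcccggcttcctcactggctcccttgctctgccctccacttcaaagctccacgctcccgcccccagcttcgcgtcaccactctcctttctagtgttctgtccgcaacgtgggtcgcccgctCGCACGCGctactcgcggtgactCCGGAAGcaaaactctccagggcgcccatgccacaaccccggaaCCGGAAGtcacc

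These windows lie, in GRCm38.p6, for Mrps18a at chr17:46110754-46111003 (forward strand), Mrpl20 at chr4:155802628-155802877 (forward strand), Mrpl22 at chr11:58171414-58171663 (forward strand), Mrps6 at chr16:92058086-92058335 (forward strand), Mrpl36 at chr13:73330759-73331008 (forward strand) and Mrpl43 at chr19:45006443-45006692 (reverse strand). The motifs were the ETS family core CCGGAAG, NRF1 written CGCANGCG, YY1 written AANATGGCG, the E-box CACGTG and the NFY box CCAAT. No member had matches of different motifs that overlapped.

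Motifs of ETS factors, NRF1 and YY1, which are known from promoters of nuclear genes for mitochondrial proteins, were more frequent in the members' windows than in those of all genes or of the tested genes, which like the members are expressed here. The ETS core was in 26 of 69 members (37.7%), beside 9.93% of 27025 genes with a window and 19.7% of the tested genes. NRF1 was in 20 (29.0%), beside 9.22% and 18.6%, and YY1 in 11 (15.9%), beside 2.76% and 5.80%. The E-box was in 5 members (7.25%), beside 8.09% of all genes and 11.5% of the tested genes, and the NFY box in 27 (39.1%), beside 41.1% and 43.7%. At least 1 of ETS, NRF1 and YY1 was in 45 members (65.2%), beside 18.9% of all genes and 37.4% of the tested genes, and 12 members had none of the 5 motifs.

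The motifs were found among members that were higher and among members that were lower in untreated EpH4-AS. With a window there were 33 higher and 29 lower members. The ETS core was in 10 of the higher and 14 of the lower, NRF1 in 11 and 8, YY1 in 5 and 4, the E-box in 2 and 2, and the NFY box in 13 and 11. Mrpl22 and Mrpl43 both hold ETS and NRF1 matches, and their log2 fold changes were 1.52 and -1.13. Mrps6 held none of the 5 in the 250 bases shown, which says only that these letters are not there. The counts of members with a motif also cover the 50 bases after the start, which are not shown. A match describes the sequence and is not a site of binding.

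The PM2.5 effect in EpH4 was small in these genes. Of 78, 1 rose and 9 fell at an adjusted p under 0.05 (edgeR), which is 12.8% called beside 27.2% of all genes tested (14.3% higher and 12.9% lower). The median log2 fold change was -0.04, beside 0.00 over all genes tested. Marker sums moved in the same libraries: the epithelial sum was higher with PM2.5 in EpH4, where 2 of 5 tested markers rose, 2 of 4 tested adipocyte and 2 of 9 tested fibroblast markers fell, and 1 of 3 tested immune markers rose. The part of these in the results on PM2.5 was not tested. Only Mrpl24 and Mrpl30 moved by more than 1.25-fold, and the SE of a member's log2 fold change had a median of 0.077.

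Mrpl24, a protein at the exit of the polypeptide tunnel, fell the most. It stood at 90.9 and 107 CPM in untreated EpH4 and 66.9 and 66.1 CPM with PM2.5, beside 30.9 and 34.0 CPM in untreated EpH4-AS and 33.4 and 30.9 CPM with PM2.5. The EpH4 groups did not overlap, and the log2 fold change was -0.57 (SE 0.0733, adjusted p 8.5e-05). Its body overlaps 1072 bases of Mettl25b on the other strand, whose log2 fold change was -0.09 (adjusted p 0.476).

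Mrpl30, a large subunit protein related to bacterial L30, stood at 74.0 and 78.9 CPM in untreated EpH4 and 57.3 and 59.3 CPM with PM2.5. Both exposed libraries were below both untreated ones, with a log2 fold change of -0.39 (SE 0.0566, adjusted p 0.000227). The other 7 falls were smaller, with log2 fold changes from -0.28 to -0.20 in Mrpl35, Mrps18c, Mrps35, Mrpl44, Mrps18b, Mrpl23 and Mrpl21. The rise was in Mrps16, a small subunit protein related to bacterial S16. It went from 20.5 and 21.2 CPM to 24.5 and 27.0 CPM, with a log2 fold change of 0.31 (SE 0.0863, adjusted p 0.017).

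Mrpl24 and Mrpl30 passed when any 1 of the 4 EpH4 libraries was left out, and the other calls did not. The DESeq2 Wald test called 2 members (2.56%, beside 16.7% of all genes) and a fit to the 2 EpH4 groups alone called 6 (7.69%, beside 19.9%). Without EpH4 PM2.5 replicate 2 only 2 members were called (2.56%, beside 15.6%), and the adjusted p was 0.15 for Mrps16, 0.0891 for Mrpl35, 0.063 for Mrps18c, 0.0997 for Mrps35, 0.276 for Mrpl44, 0.0929 for Mrps18b, 0.0823 for Mrpl23 and 0.119 for Mrpl21. Without EpH4 untreated replicate 2 it was 0.149 for Mrps18c, 0.116 for Mrpl44, 0.134 for Mrpl23 and 0.0761 for Mrpl21. Without EpH4 untreated replicate 1 it was 0.0526 for Mrps16 and 0.0915 for Mrpl21, and without EpH4 PM2.5 replicate 1 it was 0.168 for Mrps18c, 0.12 for Mrpl23 and 0.114 for Mrpl21.

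Fitted jointly with EpH4, the PM2.5 effect in EpH4-AS reached 2 members, 1 in each direction. That is 2.56% called beside 11.1% of all genes tested (6.39% higher and 4.75% lower). The median log2 fold change was 0.01, beside 0.00. The count depended on the fit. The joint fit shared each gene's spread among all 4 groups, although by chi-square on raw counts the libraries of a group differed more in EpH4. Chi-square also grows with depth, and the EpH4 libraries were deeper (24608176 to 27765982 counts, against 15393256 to 18334052). Chi-square per gene between the 2 libraries was 9.62 (untreated) and 8.77 (exposed) for EpH4. For EpH4-AS it was 1.51 (untreated) and 3.10 (exposed). The part of this difference in the counts of called members was not tested. With the 2 EpH4-AS groups fitted alone, 4 members rose and 7 fell (14.1% called, beside 25.7% of all genes), which is more than the 6 in the same fit for EpH4, while limma-trend on log2 RPKM called 5 and the DESeq2 Wald test called 0 (beside 7.13% of all genes). In these libraries all 4 tested adipocyte markers and 4 of 9 tested fibroblast markers fell with PM2.5, and their part in the result was not tested. Mrpl32, a large subunit protein that needs proteolytic maturation in the mitochondrion before it joins the ribosome, stood at 17.6 and 16.3 CPM untreated and 21.5 and 21.9 CPM with PM2.5, and rose by 0.35 on the log2 scale (SE 0.096, adjusted p 0.0289). Mrpl39 stood at 82.8 and 87.3 CPM untreated and 72.1 and 73.7 CPM with PM2.5, a log2 fold change of -0.22 (SE 0.0609, adjusted p 0.0301). Neither gene's groups overlapped.

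Both EpH4-AS calls were lost when any 1 of the 4 EpH4-AS libraries was left out, with an adjusted p from 0.0872 to 0.202 for Mrpl32 and from 0.146 to 0.304 for Mrpl39. Mrpl36 had the largest estimate, 0.64 on the log2 scale, from 1.20 and 1.33 CPM to 1.81 and 2.12 CPM, and did not pass (SE 0.284, adjusted p 0.178). No member was called for PM2.5 in both lines.

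**Figure D4:**
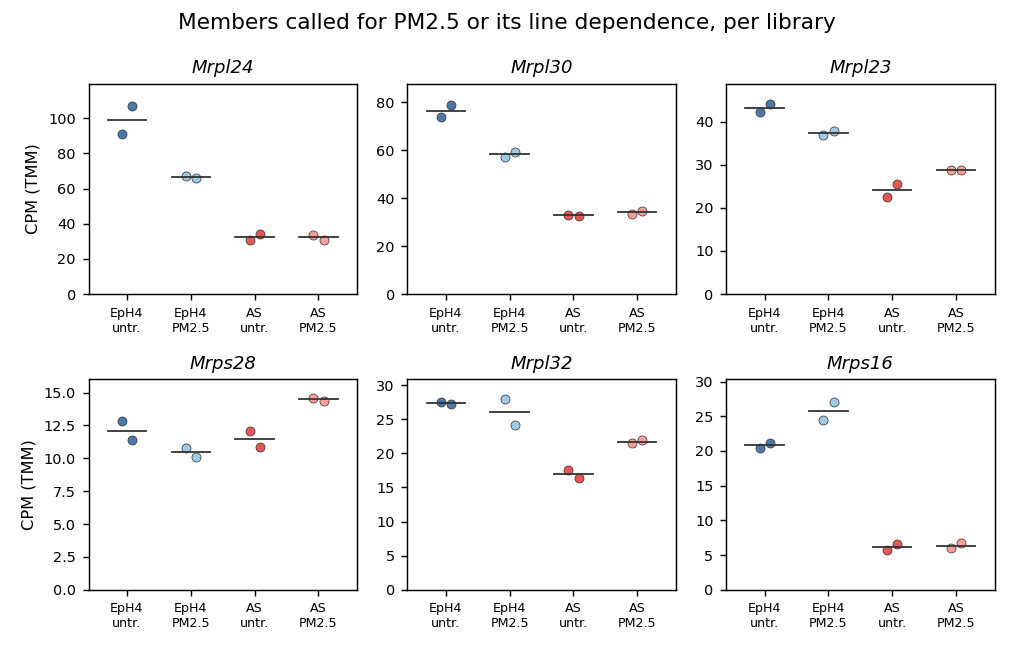
TMM-scaled CPM (vertical axis, from 0) of 6 members in each library, by group (horizontal axis; AS is EpH4-AS, untr. is untreated), with points for the 2 libraries and a bar for their mean. Mrpl24 goes from 90.9 and 107 CPM to 66.9 and 66.1 CPM with PM2.5 in EpH4, while the EpH4-AS libraries of both groups lie between 30.9 and 34.0 CPM.

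The interaction asked whether PM2.5 acted differently in the lines. It was called for 5 of 78 members (6.41%, beside 14.1% of all genes tested, 7.60% higher and 6.49% lower), and in all 5 the effect in EpH4-AS was the more positive. These were Mrpl30 with 0.45 (SE 0.0888, adjusted p 0.00436), Mrpl24 with 0.56 (SE 0.117, adjusted p 0.00573), Mrpl23 with 0.47 (SE 0.104, adjusted p 0.00853), Mrps28 with 0.54 (SE 0.153, adjusted p 0.0295) and Mrpl32 with 0.42 (SE 0.125, adjusted p 0.0379), as differences of log2 fold changes. edgeR called 0 members in the other direction, where 1 had an unadjusted p under 0.05, the DESeq2 Wald test called 0 and limma-trend on log2 RPKM called 1.

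Mrpl23, a tunnel exit protein, stood at 42.3 and 44.1 CPM in untreated EpH4 and 36.9 and 37.8 CPM with PM2.5, against 22.6 and 25.6 CPM and 28.8 and 28.7 CPM in EpH4-AS. Its level fell in EpH4 (adjusted p 0.0313) and its log2 fold change in EpH4-AS was 0.26 (adjusted p 0.0514). Mrps28, a small subunit protein on the messenger RNA path, stood at 12.8 and 11.4 CPM in untreated EpH4 and 10.8 and 10.1 CPM with PM2.5, and at 12.1 and 10.9 CPM and 14.6 and 14.4 CPM in EpH4-AS. Neither of its 2 effects passed alone (adjusted p 0.155 in EpH4 and 0.0736 in EpH4-AS). Without EpH4-AS untreated replicate 1 the adjusted p of the interaction was 0.0508 for Mrpl24, 0.0594 for Mrpl23, 0.0505 for Mrps28 and 0.0692 for Mrpl32, and only 1 member was called.

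The genes around the mitochondrial ribosome were set beside these results, from lists of the assembly and translation machinery. Of all genes tested, 89.2% were called between the untreated lines and 89.0% between the lines with PM2.5. For PM2.5 itself 27.2% were called in EpH4 and 11.1% in EpH4-AS. A further 5 subunits have other symbols (Dap3, Ptcd3, Aurkaip1, Chchd1 and Gadd45gip1), and 4 of them were higher in untreated EpH4-AS, led by Gadd45gip1 (log2 fold change 1.73, adjusted p 2.18e-11) and Aurkaip1 (1.68, adjusted p 8.33e-12). With PM2.5 all 5 were higher. PM2.5 raised Ptcd3 in EpH4 (0.25, adjusted p 0.00521) and Chchd1 in EpH4-AS (0.32, adjusted p 0.0269).

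Of 28 assembly and ribosomal RNA modification factors, 14 were higher and 6 lower in untreated EpH4-AS, with a median of 0.30. That is 71.4% called, beside 89.2% of all genes tested. Dhx30, an RNA helicase, had 1.87 (adjusted p 6.54e-14), Eral1, a chaperone of the small subunit RNA, had 1.37 (adjusted p 1.44e-10), and Gtpbp6, a GTPase, had -2.62 (adjusted p 4.95e-11). Of these 28, PM2.5 lowered Rcc1l (-0.44, adjusted p 0.000408) and Mrm1 (-0.22, adjusted p 0.0476) in EpH4 and Eral1 (-0.31, adjusted p 0.0142) in EpH4-AS. These calls were 7.14% of the 28 in EpH4, beside 27.2% of all genes tested, and 3.57% in EpH4-AS, beside 11.1%. Of 17 translation factors and messenger RNA partners, 8 were higher and 6 lower in untreated EpH4-AS (82.4% called). The elongation factor gene Tufm had 2.38 (adjusted p 1.51e-14) and the release factor gene Mtrf1 2.45 (adjusted p 1.86e-10). PM2.5 in EpH4 raised Tufm (0.23, adjusted p 0.00853) and Guf1 (0.30, adjusted p 0.00849) and lowered Mtres1 (-0.44, adjusted p 0.00279) and Mrrf (-0.27, adjusted p 0.0243). These were 23.5% of the 17, beside 27.2% of all genes tested.

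Of 17 mitochondrial aminoacyl-tRNA synthetases, which charge the tRNAs used by this ribosome, 11 were higher and 2 lower in untreated EpH4-AS. That is 76.5% called, beside 89.2% of all genes tested, with a median of 0.83. Iars2 had 2.40 (adjusted p 2.14e-14) and Yars2 2.20 (adjusted p 3.56e-12). In EpH4, PM2.5 changed 5 of the 17, 29.4% beside 27.2% of all genes tested. It lowered Ears2, Wars2, Nars2 and Lars2, with Lars2 at -0.85 (adjusted p 0.00836), and raised Vars2 (0.19, adjusted p 0.0435).

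The messenger RNAs that the mitochondrial ribosome translates went another way. All 13 were lower in untreated EpH4-AS, with a median log2 fold change of -3.86, and all 13 rose with PM2.5 in EpH4, with a median of 0.99. In EpH4-AS 8 of 13 rose with PM2.5 (61.5%, beside 11.1% of all genes tested), with a median of 0.42. The cytosolic ribosomal protein genes (76), the corresponding set of the cytosol, were mostly lower in untreated EpH4-AS (71 lower, 4 higher, median -1.58). That is 98.7% called, beside 89.2% of all genes tested. With PM2.5, 53 fell in EpH4 (69.7%, beside 27.2%, median -0.28) and 36 rose in EpH4-AS (47.4%, beside 11.1%, median 0.22). The nuclear genes of the respiratory chain and ATP synthase (76) held both directions, with 41 higher and 30 lower in untreated EpH4-AS (93.4% called, median 0.24). With PM2.5, 3 rose and 6 fell in EpH4 (11.8%, beside 27.2% of all genes tested, median -0.06). No difference between lists was tested.

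**Figure D5:**
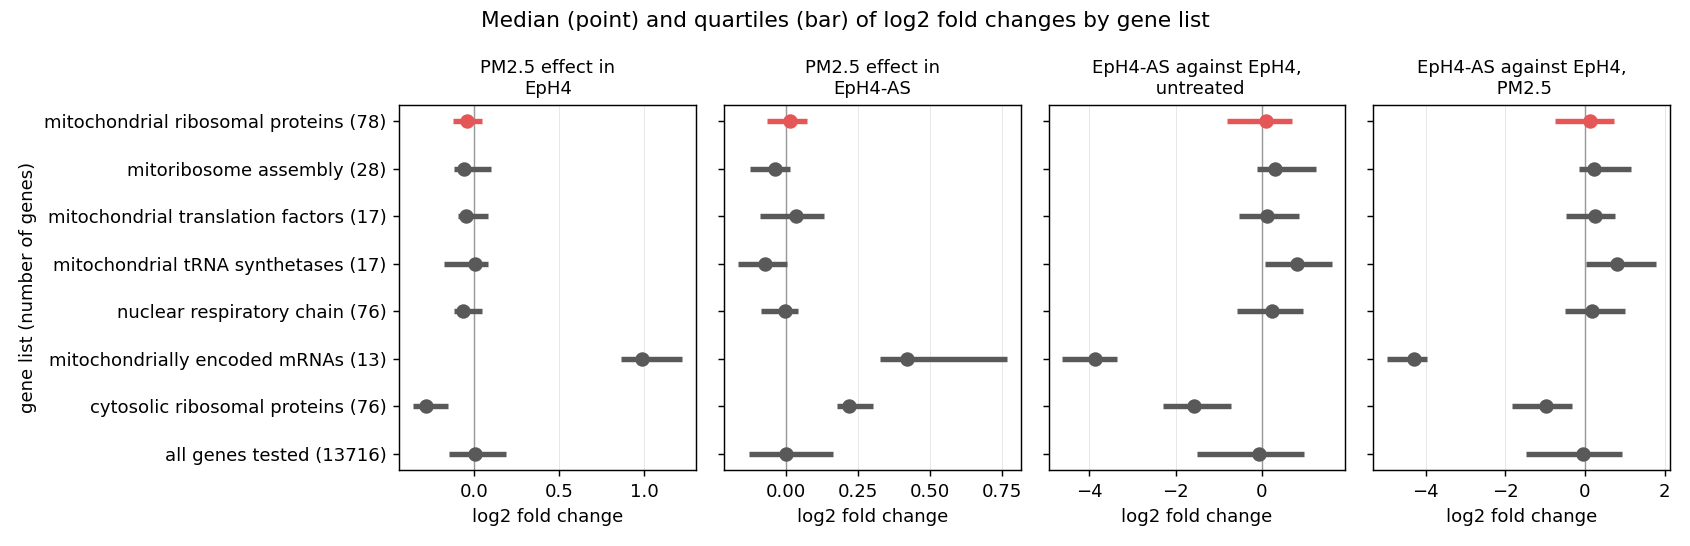
Median log2 fold change (point) and its quartiles (bar) over the genes of 8 lists (vertical axis, number of genes in parentheses) in 4 comparisons (panels, each with its own horizontal scale). The mitochondrial ribosomal protein genes (red) have medians of -0.04, 0.01, 0.11 and 0.14, while the mitochondrially encoded messenger RNAs have 0.99 and -3.86 in the first and the third panel.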

How the data were processed

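The authors deposited raw counts of reads per gene and RPKM values (reads scaled to exon length and library size) for 8 libraries, per the file headers. A table for each library adds, per the file headers, a count of all reads on a gene, exonic or not. The libraries were made from polyadenylated RNA with a stranded kit, per the labels' protocols, and the genome was GRCm39, per the submitters' processing notes. Which aligner, annotation, counter and strand setting were used is not given in the sources used here.

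Groups were read from the labels. Of 25413 genes, 13716 passed edgeR's filterByExpr and held 99.96% of counts. After TMM scaling, edgeR 4.0.16 (R 4.3.3) fitted a quasi-likelihood model with a mean for each of the 4 groups, leaving 4 residual degrees of freedom. The contrasts were PM2.5 against untreated for each line, the lines against each other at each exposure, and the interaction. P values are two-sided and adjusted by Benjamini-Hochberg over all tested genes in each contrast, with a threshold of 0.05. Each SE was the fold change (log2) divided by the root of its F value, and a prior count of 2 was added for log2 CPM. Total counts per library ran from 15393256 to 27765982, and the median SE of a member was 0.077 to 0.113.

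The members and gene lists were chosen with earlier results of these data known. The text names, for each pairwise contrast, up to 10 members with the largest rise and 10 with the largest fall among those past the threshold whose groups do not overlap. It also names up to 8 interaction members, the 5 highest and 5 lowest by RPKM, the members of the site lists, and up to 4 genes of each other list by adjusted p. Slc5a3, Rsph9, Mettl25b, Vars2, Mrpl43 the 5 highest members of each untreated line, and the members called in 1 line comparison, in neither or not under all alternatives were named after their values were seen. Exon lengths and named pseudogenes came from GENCODE M21 (GRCm38), with an exon length for all 78 members.

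On simulated data with 12590 genes, made for PM2.5 in EpH4, the share of changed genes found was 64% where the change was 1.25-fold, 88% where it was 1.5-fold, 96% at 2-fold and 100% at 4-fold, and 6 of 180 calls were false. The simulation used the means of untreated EpH4 and 1 dispersion, 0.00218, for all genes and groups. The real groups differed in chi-square between their libraries, so these shares need not hold for them. The alternatives were DESeq2 1.42.0 size factors and Wald test, library totals, no filter, a filter of 1 CPM in 2 libraries, a replicate block, 2 groups only, no mitochondrially encoded genes, limma 3.58.1 trend on log2 RPKM with a pseudocount of 1 or 0.1, thinning, and each library left out. A crossed replicate block, total gene reads and a sum without Mrps18a were chosen after seeing the data.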

Additional observations from a re-analysis of the deposited data

Results flagged for a closer look

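For 5 members the PM2.5 effect differed between the lines by the interaction test of edgeR (differences of log2 fold changes, EpH4-AS minus EpH4, 2 libraries a group). The difference was 0.448 for Mrpl30, 0.562 for Mrpl24, 0.467 for Mrpl23, 0.544 for Mrps28 and 0.422 for Mrpl32. With an adjusted p from 0.00436 to 0.0379, these are 6.41% of the members beside 14.1% of all genes tested. Mrpl30 alone of the 5 passed when any 1 of the 8 libraries was left out.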

How the results depend on the processing

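Of 67 members called between the lines untreated, 60 were called in the same direction under all 17 alternatives, and of 68 called with PM2.5, 61 were. Those lost under at least 1 were Mrpl47, Mrpl1, Mrps33, Mrps12, Mrpl17, Mrpl34 and Mrpl57 untreated and Mrpl1, Mrps11, Mrpl17, Mrps31, Mrpl32, Mrpl57 and Mrpl18 with PM2.5. Under the alternatives that left out no library, 64 to 69 members were called untreated (82.1% to 88.5%, beside 65.3% to 89.8% of all genes). With PM2.5, 67 to 70 were (85.9% to 89.7%, beside 65.8% to 89.5%). The lowest shares of all genes, 65.3% and 65.8%, were those without a filter. On log2 RPKM with a pseudocount of 0.1 the median of all genes in the untreated line comparison was 0.14 in place of -0.05, and 44 members were higher and 25 lower. For PM2.5 in EpH4 (10 members), the DESeq2 Wald test called 2 (2.56%, beside 16.7% of all genes under that setting) and a fit to 2 groups only called 6 (7.69%, beside 19.9%), and leaving out 1 library gave 2 to 12 (2.56% to 15.4%, beside 15.6% to 29.0%). For PM2.5 in EpH4-AS (2 members), no filter gave 4 (5.13%, beside 9.96%), the DESeq2 Wald test 0 (beside 7.13%), limma-trend 5 with a pseudocount of 1 or 0.1 (6.41%, beside 11.4% and 9.86%) and a fit to 2 groups only 11 (14.1%, beside 25.7%), and leaving out 1 library gave 0 to 1 (beside 2.55% to 4.89%). For the interaction (5 members), the DESeq2 Wald test called 3 (3.85%, beside 9.05%), and leaving out 1 library gave 1 to 7 (1.28% to 8.97%, beside 6.14% to 19.0%). Where 1 library remained in a group, its spread was taken from the other groups. The summed level of EpH4-AS over EpH4 was 1.30 by library totals, 1.48 by RPKM and 1.14 without Mrps18a when untreated, and 1.32, 1.50 and 1.18 with PM2.5, and PM2.5 over untreated in EpH4-AS was 0.975 by library totals and 0.975 by RPKM. Over genes, the replicate differences of the groups correlated weakly (from -0.101 to 0.065). With a single difference per group, this cannot decide whether the replicate numbers pair the samples. With the replicate numbers as a block, 8 members were called for PM2.5 in EpH4 (10.3%, beside 23.8% of all genes) and 2 in EpH4-AS (2.56%, beside 9.13%). Between the lines 67 (85.9%, beside 88.6%) and 68 (87.2%, beside 88.3%) were called, and 5 in the interaction (6.41%, beside 11.5%). With the numbers of EpH4 with PM2.5 exchanged the counts were 12 (15.4%, beside 30.0%), 3 (3.85%, beside 13.3%), 67 (85.9%, beside 89.5%), 69 (88.5%, beside 89.5%) and 6 (7.69%, beside 16.8%). The largest rises and falls named by rule in each pairwise contrast, and the 5 interaction members, were followed under each alternative. In each line comparison all 340 such calls, of the 10 largest rises and 10 largest falls, held. Those are the most extreme calls, and other named members lost theirs, as listed above. For PM2.5 in EpH4 130 held and 40 were lost, in EpH4-AS 24 held and 10 were lost, and in the interaction 79 held and 21 were lost. None of the members followed changed direction in the contrast it was followed for. The cause of these changes was not tested. The SE of a member, mostly near 0.08 on the log2 scale, limits the PM2.5 results.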
